A study of Mus musculus with 5 samples.

Results

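Kinesins are the motor proteins that use ATP to move along microtubules or to take them apart. The members described here are the genes whose symbol in the array's platform table was Kif followed by a number and, where present, lower-case letters or digits. There were 37 such genes among the 22180 genes analysed, 12 of them mitotic kinesins, 15 transport and neuronal kinesins and 10 ciliary and other kinesins. All 37 symbols, taken from the platform table, matched the reference gene table by gene identifier. Each gene was represented by the array feature that named only that gene and had the highest mean over all 5 arrays. Kinesin genes with other symbols, such as Kifc1 and Cenpe, are not among the members.

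RNA came from hematopoietic stem cells (HSCs), the rare marrow cells that renew the blood lineages. Stem and progenitor cells of the C57BL/6 strain were kept for 24 h in medium with 5 µM all-trans retinoic acid (ATRA), the hormone form of vitamin A, in 2 samples, or with its solvent DMSO in 3 samples, and HSCs were taken by flow cytometry afterwards. The sources used here do not state the age or sex of the mice, or any pooling. Both groups were cultured before the sort, so neither stands for HSCs taken directly from marrow. Whether replicates came from different cultures or mice is not stated in the labels, and p-values reflect the spread among these 5 samples alone, part or all of which may be technical. Values are the authors' log2 expression values, in which a difference of 1 is a doubling of the measured signal. A feature's value also depends on its probes, so values of different genes do not rank their transcripts.

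Mitotic kinesins build the bipolar spindle, move and align chromosomes and organize the central spindle and the midbody. They are made in the G2 and M phases and are scarce in resting cells. Transport kinesins carry vesicles, organelles and RNA toward the cell periphery, and several of them are known best from axons and dendrites. Ciliary kinesins move cargo in cilia and flagella or set their length. HSCs in the marrow are mostly quiescent, and cells that enter the cycle in culture switch on the mitotic set.

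The arrays differed as wholes, and this touches every value below. The SD of all 41345 features was 1.77 and 1.49 in the ATRA arrays and 1.96 to 1.97 in the DMSO arrays, and the ATRA arrays correlated with each other at 0.730 across features, against 0.966 to 0.978 among DMSO arrays. ATRA replicate 1 correlated with the DMSO arrays at 0.81 to 0.83, which is closer than with ATRA replicate 2. ATRA replicate 2 correlated with the DMSO arrays at 0.60 to 0.64. Genes with high DMSO values tended to have lower ATRA values. The median gene differed by 0.16 between ATRA and DMSO, and by -0.11 once each array was centred on its median. Of the 10 HSC markers listed, 8 were measured, with a mean of 7.997 and 6.75 in the ATRA arrays and 9.10 to 9.41 in the DMSO arrays. The 8 neuron markers had means of 5.78 and 5.96 in ATRA and 5.39 to 5.57 in DMSO, and none of them passed the test. Of the other marker lists, 1 of 8 neutrophil and macrophage markers (S100a9) and 1 of 5 T cell markers (Cd3g) were higher. So was 1 of 4 stroma markers (Cdh5), beside 6.48% of all genes. Lower were 1 of 4 megakaryocyte markers (Itga2b) and 4 of 8 HSC markers, beside 15.5% of all genes. The HSC markers had a median DMSO mean of 9.01, and 57.5% of all genes that averaged 9 to 10 in DMSO were lower. With the trend of differences on the DMSO level removed, 0 HSC markers were lower. The list means were 6.17 and 6.02 in ATRA and 5.59 to 5.94 in DMSO for neutrophil and macrophage, and 5.63 and 6.33 in ATRA and 5.33 to 5.44 in DMSO for T cell markers. They were 5.96 and 6.58 in ATRA and 5.63 to 5.77 in DMSO for stroma, and 7.99 and 7.86 in ATRA and 8.48 to 8.70 in DMSO for megakaryocyte markers. The part of other cells in the kinesin differences was not tested. In samples of many cells, fewer cells of a type and less RNA per cell cannot be told apart.

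Many of the mitotic kinesin promoter windows held short sequence elements that the choice of members did not use, though not all of them. The cell cycle homology region (CHR), with the letters TTTGAA, is bound by the MuvB complexes that repress mitotic genes in resting cells and activate them in dividing cells, and CCAAT boxes are bound by the factor NF-Y. Windows from 250 bases before to 50 bases after each annotated start were taken from RefSeq (GRCm38.p6) and searched on both strands. Of the 37 genes, 31 had a window. Kif13b, Kif19a, Kif20a, Kif21b, Kif5a and Kif5b are named only. The window of Kif14, which fell with ATRA and holds both elements, is not shown. Shown are those of 4 other mitotic kinesins that fell and hold both, Kif18b, Kif22, Kif4 and Kif11. That of Kif13a, which fell too and holds neither, is shown beside them. Each is printed along the gene's own strand, with capitals on the CHR letters TTTGAA or their reverse complement TTCAAA, and on the NF-Y box letters CCAAT or their reverse complement ATTGG.
Kif18b: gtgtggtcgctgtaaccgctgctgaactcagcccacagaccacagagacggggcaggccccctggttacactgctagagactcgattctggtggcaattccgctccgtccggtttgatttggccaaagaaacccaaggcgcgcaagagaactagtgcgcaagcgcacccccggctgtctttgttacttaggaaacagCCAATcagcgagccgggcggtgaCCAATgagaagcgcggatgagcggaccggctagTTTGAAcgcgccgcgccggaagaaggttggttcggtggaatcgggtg
Kif22: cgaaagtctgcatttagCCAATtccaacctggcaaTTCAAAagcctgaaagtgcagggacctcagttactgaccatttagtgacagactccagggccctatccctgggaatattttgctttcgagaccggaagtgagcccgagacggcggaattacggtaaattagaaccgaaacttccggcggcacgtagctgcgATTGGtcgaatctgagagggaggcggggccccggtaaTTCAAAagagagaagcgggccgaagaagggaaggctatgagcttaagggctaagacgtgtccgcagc
Kif4: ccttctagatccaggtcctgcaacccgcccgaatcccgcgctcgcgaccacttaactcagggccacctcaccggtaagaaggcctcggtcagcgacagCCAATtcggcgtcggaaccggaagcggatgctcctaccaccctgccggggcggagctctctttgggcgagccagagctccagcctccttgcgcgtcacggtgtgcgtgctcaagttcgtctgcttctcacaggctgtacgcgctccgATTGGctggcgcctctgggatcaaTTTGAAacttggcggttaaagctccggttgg
Kif11: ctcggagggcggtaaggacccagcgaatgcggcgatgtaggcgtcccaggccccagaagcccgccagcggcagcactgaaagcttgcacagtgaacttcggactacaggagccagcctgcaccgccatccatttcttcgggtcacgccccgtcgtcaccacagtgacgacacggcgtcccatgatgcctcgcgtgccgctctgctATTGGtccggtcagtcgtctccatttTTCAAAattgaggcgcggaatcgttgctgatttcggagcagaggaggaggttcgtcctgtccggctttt
Kif13a: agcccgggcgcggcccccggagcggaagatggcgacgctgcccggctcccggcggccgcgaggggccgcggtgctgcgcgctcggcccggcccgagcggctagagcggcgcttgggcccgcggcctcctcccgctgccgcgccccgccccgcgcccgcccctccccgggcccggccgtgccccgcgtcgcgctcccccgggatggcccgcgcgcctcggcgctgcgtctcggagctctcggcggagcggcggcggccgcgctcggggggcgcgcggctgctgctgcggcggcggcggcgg
The windows lie at chr11:102925075-102925374 on the minus strand for Kif18b, chr7:127042371-127042670 on the minus strand for Kif22, chrX:100625815-100626114 on the plus strand for Kif4, chr19:37376132-37376431 on the plus strand for Kif11 and chr13:46929669-46929968 on the minus strand for Kif13a. Each runs from 250 bases before an annotated start to 50 bases after it. Those of Kif4 and Kif11 hold the upstream flank of the gene and its first bases. The span of Kif13a in the reference reaches to base 46929917, so most of its window lies within the gene. The spans of Kif22, to base 127042467, and of Kif18b, to base 102925134, also reach past the start used.

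Among the 11 mitotic kinesin genes with a window, 9 held TTTGAA, which occurred in 17.9% of the 32851 windows in the table. It was found in 1 of 13 windows of transport and neuronal kinesins (the window of 1 of the starts of Kif1a) and in 2 of 11 windows of ciliary and other kinesins (Kif26b and Kif27). CCAAT was present in 7 of 11 mitotic windows, in 4 of 13 transport windows, in 4 of 11 ciliary windows and in 37.4% of all windows. Both elements stood together in 6 mitotic windows, those of Kif11, Kif14, Kif18b, Kif22, Kif23 and Kif4, in 0 transport windows, in 2 of 11 ciliary windows (Kif26b and Kif27, neither of which passed the test) and in 6.95% of all windows. The mitotic windows without TTTGAA were those of Kif18a and Kif2b. The windows of Kif15, Kif20b, Kif23 and Kif2c held it, and these genes did not pass the test. Kif24, a ciliary and other kinesin that fell, had CCAAT and no TTTGAA in its window. Among the windows with TTTGAA, those of Kif14, Kif2c, Kif27 and Kif1a belong to starts inside the gene's span in the reference. They hold no flank of the gene and were counted like the others. In Kif11 the TTTGAA match began 19 bases before the start site, in Kif22 the nearer of its matches began 17 bases before it, and in Kif18b the match began at base 4 after it. These matches are letters in a window and not measured binding sites, and the windows were counted with no test.

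**Figure D1:**
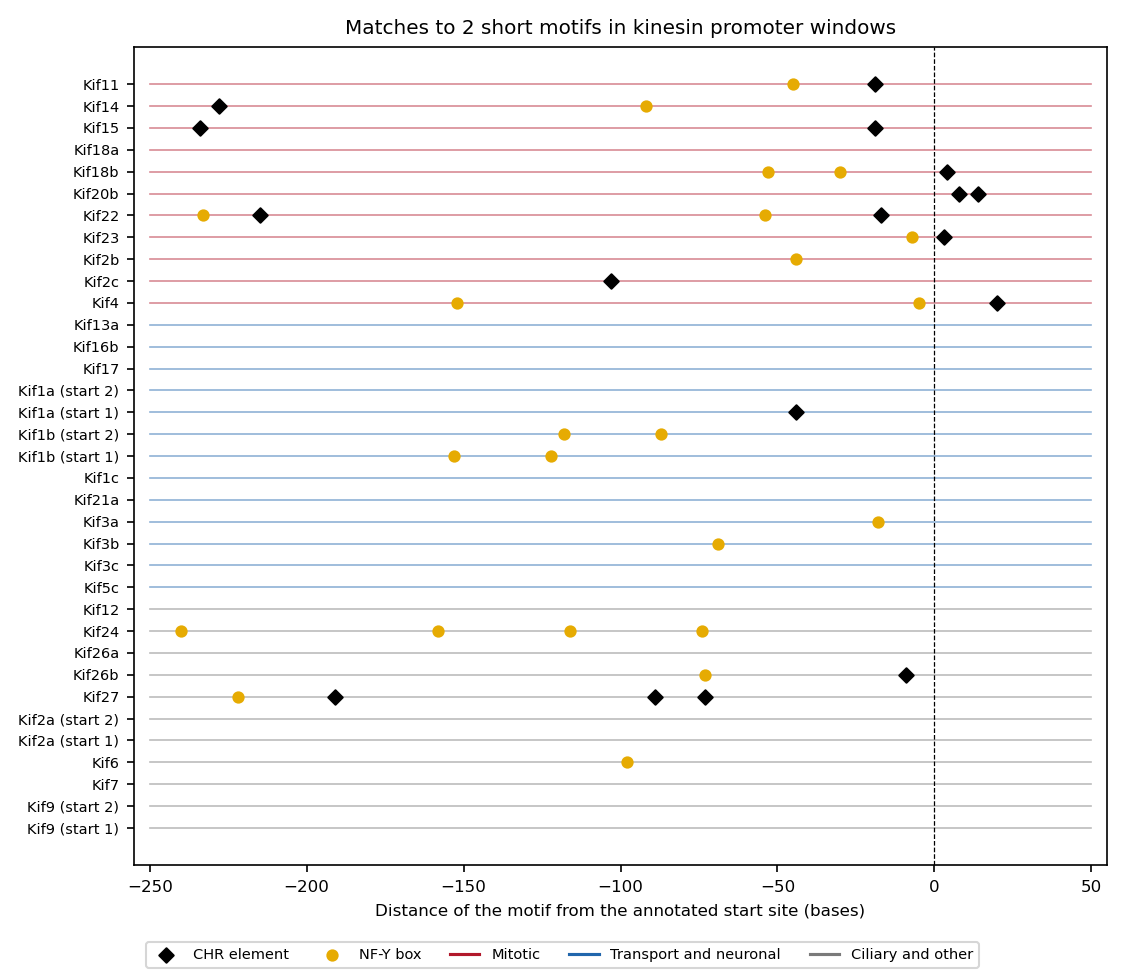
Matches to the CHR element (diamonds) and the NF-Y box, that is CCAAT (circles), along the promoter windows of the kinesin genes, by distance in bases from the annotated start site; genes with several starts have a line for each, and line colours give the 3 classes. CHR elements stand in 9 of 11 mitotic windows and in 1 of 13 transport and neuronal windows.

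The comparison of ATRA with DMSO asks which kinesin transcripts stand at another level after a day with the hormone. Of the 37 kinesin genes, 10 were lower with ATRA, 1 was higher and 26 did not pass (limma, adjusted p under 0.05 over all genes), beside 15.5% of all genes lower and 6.48% higher. Mitotic kinesins made up most of the falls: 6 of 12 fell (Kif18b, Kif22, Kif4, Kif20a, Kif11 and Kif14), 1 rose (Kif2b) and 5 did not pass. Of the 15 transport and neuronal kinesins, 3 fell (Kif21b, Kif5b and Kif13a), 0 rose and 12 did not pass. Of the 10 ciliary and other kinesins 1 fell (Kif24), 0 rose and 9 did not pass. The median log2 difference was -1.46 for mitotic, -0.44 for transport and neuronal and 0.14 for ciliary and other kinesins, against 0.16 for all genes. With each array centred on its median, 14 kinesins were lower and 0 higher, beside 20.5% and 2.52% of all genes, and the median of the ciliary and other kinesins turned to -0.13. The gap between the mitotic and the transport median was -1.03, and this gap was given no test.

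Whether both ATRA values lay outside the DMSO values followed the same order of classes. Both ATRA arrays were below all DMSO arrays for 11 of 12 mitotic kinesins, where the exception, Kif2b, was above them. The same held for 9 of 15 transport and neuronal and 1 of 10 ciliary and other kinesins, with 1 and 2 members above. Across all genes, 29.2% lay below and 33.0% above, and 62.1% did not overlap in either direction, near the 67.6% of all 37 kinesins. The classes also differed in level, with median DMSO means of 8.13 for mitotic, 7.003 for transport and neuronal and 6.32 for ciliary and other kinesins. These shares were not counted by level.

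**Figure D2:**
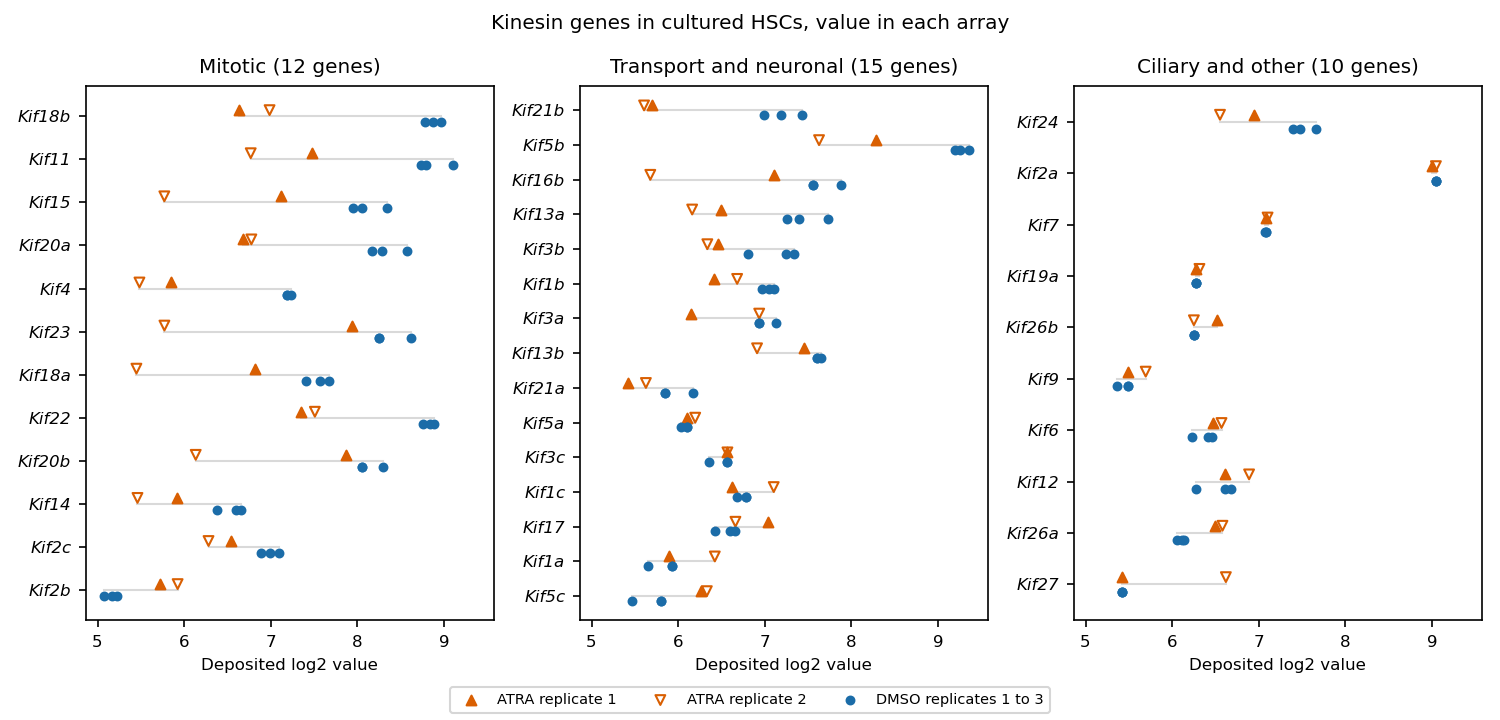
Deposited log2 value of each of the 37 kinesin genes in each array, in a panel per class, with ATRA replicates as triangles and DMSO replicates as circles; genes are ordered by the ATRA minus DMSO difference. In the mitotic panel the ATRA triangles lie left of all DMSO circles for 11 of 12 genes, and for Kif2b they lie right of them.

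A pair of chromosome-binding motors and a microtubule-end regulator fell with both ATRA arrays well below the DMSO arrays. Kif18b, which limits the length of the microtubules that reach from the spindle poles to the cell cortex, was at 6.63 and 6.99 in the ATRA arrays, against 8.96, 8.79 and 8.87 in the DMSO arrays. Its fall was the largest among the kinesins on the deposited values, but not after quantile or cyclic loess normalization, with the level trend removed or without ATRA replicate 1 (log2 difference -2.06, SE 0.16, 4.18-fold lower, adjusted p = 0.00707). Kif22, the chromokinesin Kid that pushes chromosome arms toward the spindle equator, was at 7.35 and 7.51 in ATRA and at 8.89, 8.75 and 8.84 in DMSO. Its log2 difference was -1.40 (SE 0.12, adjusted p = 0.00771), and the groups were more than 1 log2 unit apart. Kif4, a chromokinesin that also shortens the microtubules of the central spindle, was at 5.85 and 5.48 in ATRA and at 7.23, 7.19 and 7.19 in DMSO. It was 2.90-fold lower (log2 difference -1.54, SE 0.15, adjusted p = 0.00922). The genome also holds a Kif4 pseudogene, Kif4-ps, whose transcripts the probes may not tell from those of Kif4.

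Motors of spindle pole separation and of cytokinesis fell too, with a wider gap between the ATRA arrays for some of them. Kif20a, which brings the Aurora B complex to the central spindle, was at 6.68 and 6.78 in ATRA and at 8.28, 8.58 and 8.17 in DMSO (log2 difference -1.62, SE 0.17, adjusted p = 0.00983). Kif11, the motor Eg5 that slides the spindle poles apart, was at 7.47 and 6.77 in ATRA and at 8.79, 8.73 and 9.10 in DMSO. Its fall was 3.37-fold (log2 difference -1.75, SE 0.27, adjusted p = 0.0192), with ATRA replicate 2 the lower of the ATRA arrays. Kif14, which works with citron kinase in cytokinesis, was at 5.92 and 5.46 in ATRA and at 6.65, 6.60 and 6.38 in DMSO, a log2 difference of -0.85 (SE 0.20, adjusted p = 0.046). Its DMSO mean of 6.54 lies in a range, from 6 to 7, where 2.65% of 4333 genes were lower.

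For 5 mitotic kinesins the mean was lower in ATRA without passing the test. In 4 of these, ATRA replicate 2 lay more than 1 log2 unit under ATRA replicate 1. Kif23, the motor subunit of centralspindlin, was at 7.94 and 5.77 in ATRA and at 8.25, 8.62 and 8.25 in DMSO (log2 difference -1.52, SE 0.68, adjusted p = 0.169). Kif20b, a motor of the last steps of cytokinesis, was at 7.87 and 6.13 in ATRA and at 8.06, 8.06 and 8.29 in DMSO (adjusted p = 0.188). In both genes ATRA replicate 1 lay just under the lowest DMSO value and replicate 2 far under it. Kif15, which can stand in for Kif11 in keeping the spindle bipolar, was at 7.12 and 5.77 in ATRA and at 8.06, 8.34 and 7.95 in DMSO (adjusted p = 0.0609). Kif18a, which damps the movements of aligned chromosomes, was at 6.82 and 5.45 in ATRA and at 7.67, 7.40 and 7.57 in DMSO (adjusted p = 0.085). These 2 genes had both ATRA arrays clearly below DMSO, but more than 1 log2 unit apart. Kif2c, the depolymerase MCAK that corrects wrong chromosome attachments, differed less, with 6.55 and 6.28 in ATRA and 6.99, 7.09 and 6.88 in DMSO (log2 difference -0.58, SE 0.15, adjusted p = 0.0566).

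Kif2b was the only kinesin past the threshold upward, and the call depended on the scaling and on a filter. It encodes a depolymerase related to Kif2c, with a spindle role known from human cells. Its values were 5.72 and 5.93 in ATRA and 5.08, 5.16 and 5.22 in DMSO, the lowest DMSO mean among the 37 kinesins (log2 difference 0.67, SE 0.13, adjusted p = 0.0323). The 5362 genes that averaged 5 to 6 in DMSO had a median difference of 0.45, beside the 0.67 of Kif2b. Of these genes, 9.87% were called higher, as Kif2b was, and 0.0559% lower. With the trend of differences on level removed, it was 0.17 (adjusted p = 0.504), and on centred arrays it was 0.40 (adjusted p = 0.099). Both group means of Kif2b lie under 6.07, so that it was not tested when dim features were left out.

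**Figure D3:**
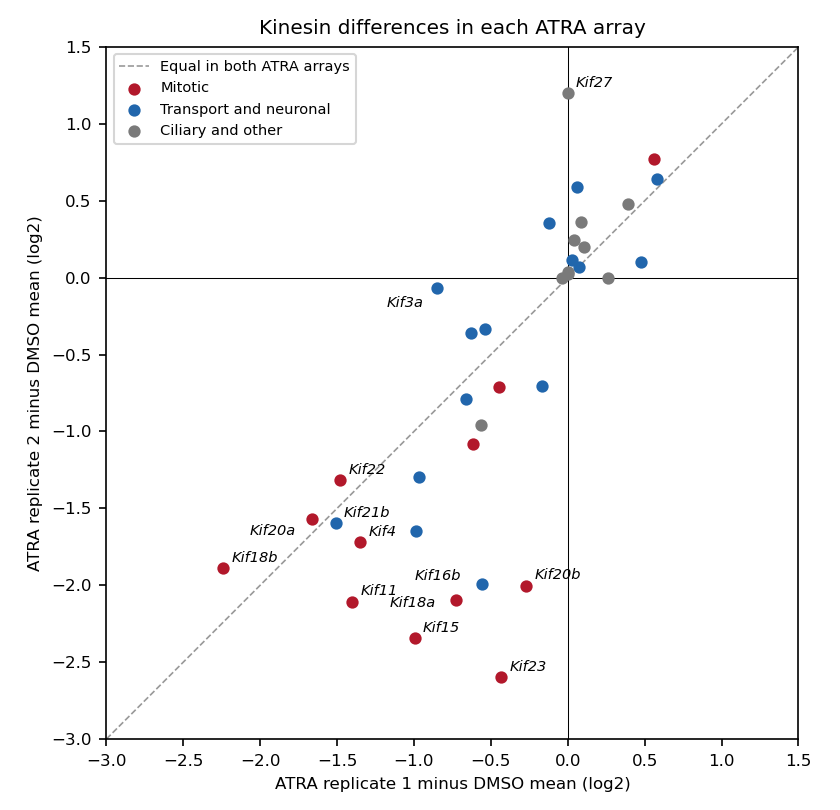
Difference of each kinesin gene from the DMSO mean in ATRA replicate 1 (horizontal) and ATRA replicate 2 (vertical), in log2 units, coloured by class, with a dashed line where both are equal. Kif22, Kif20a and Kif21b lie near the line, Kif18b lies above it, while Kif23, Kif20b, Kif18a and Kif15 lie far below it.

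The median mitotic kinesin differed from its DMSO mean by -0.86 in ATRA replicate 1 and by -1.80 in ATRA replicate 2. For transport and neuronal kinesins these medians were -0.54 and -0.33, and for all genes 0.04 and 0.14. The order of both classes was thus the same in each ATRA array, but the gap between their medians was -0.32 without ATRA replicate 2 and -1.47 without ATRA replicate 1. Without ATRA replicate 1, 11 of 12 mitotic kinesins were called lower (30.6% of all genes), and without ATRA replicate 2, 6 of 12 (21.3%). In all, 4 kinesins were higher and 18 lower without ATRA replicate 1, beside 33.5% and 30.6% of all genes. A lone ATRA array then takes its spread from the DMSO group. The genes called lower without ATRA replicate 2 include Kif18a, Kif1b and Kif3a, and not Kif14, Kif13a or Kif24. In ATRA replicate 1, Kif14 differed from its DMSO mean by -0.62, Kif13a by -0.97 and Kif24 by -0.56. In ATRA replicate 2 these differences were -1.08, -1.30 and -0.96.

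Among the transport and neuronal kinesins, the falls were those of an axon and dendrite motor, a general cargo motor and an endosome motor. Kif21b, a motor of dendrites that is also known to govern microtubule growth in T cells, was at 5.70 and 5.61 in ATRA and at 6.99, 7.43 and 7.19 in DMSO. It was 2.94-fold lower (log2 difference -1.55, SE 0.17, adjusted p = 0.0107), with the ATRA arrays close together. Kif13a, which carries mannose 6-phosphate receptors and recycling endosomes, was at 6.49 and 6.16 in ATRA and at 7.39, 7.26 and 7.73 in DMSO (log2 difference -1.13, SE 0.21, adjusted p = 0.028). Kif5b, the conventional kinesin heavy chain found in most tissues, had the highest DMSO mean of the 37 genes. It was at 8.28 and 7.63 in ATRA and at 9.25, 9.37 and 9.20 in DMSO (log2 difference -1.32, SE 0.23, adjusted p = 0.026). Another feature of Kif5b did not show this fall, with 6.12 and 5.88 in ATRA and 5.77, 5.98 and 5.83 in DMSO, and the mean of both features did not pass (log2 difference -0.59, adjusted p = 0.0835).

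The other members of this class did not pass. Kif1b, which carries mitochondria and precursors of synaptic vesicles, was at 6.41 and 6.68 in ATRA and at 7.10, 6.97 and 7.05 in DMSO (adjusted p = 0.0696). Kif3a and Kif3b pair in the motor that drives transport into cilia. Kif3b was at 6.47 and 6.34 in ATRA and at 7.25, 6.80 and 7.34 in DMSO (adjusted p = 0.0712). Kif3a was at 6.15 and 6.94 in ATRA and at 7.13, 6.94 and 6.94 in DMSO (adjusted p = 0.243), so that ATRA replicate 2 nearly met the DMSO values. Kif16b, a motor of early endosomes, was at 7.11 and 5.68 in ATRA and at 7.56, 7.89 and 7.56 in DMSO (adjusted p = 0.115), again with replicate 2 far lower.

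Apart from Kif21b, the kinesins known mainly from neurons did not pass the test. Kif5c, a neuronal relative of Kif5b, was at 6.27 and 6.33 in ATRA and at 5.80, 5.47 and 5.80 in DMSO (log2 difference 0.61, SE 0.16, adjusted p = 0.0574). Kif1a, the motor of synaptic vesicle precursors, was at 5.89 and 6.42 in ATRA and at 5.66, 5.92 and 5.92 in DMSO (adjusted p = 0.275). Its ATRA replicate 1 lay within the DMSO values. Kif5a, Kif17, Kif3c and Kif1c had differences from 0.07 to 0.29 with overlapping groups, of which those of Kif5a, Kif3c and Kif1c turned negative on centred arrays, and Kif13b and Kif21a had differences of -0.44 each, with both ATRA arrays below DMSO. None of these 6 passed.

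In the ciliary and other class, Kif24, a centriole motor that holds back the growth of cilia, was at 6.95 and 6.55 in ATRA and at 7.66, 7.48 and 7.39 in DMSO (log2 difference -0.76, SE 0.18, adjusted p = 0.0482). Kif26a, an atypical member that binds microtubules without moving along them, was at 6.49 and 6.58 in ATRA and at 6.06, 6.14 and 6.11 in DMSO (log2 difference 0.44, SE 0.11, adjusted p = 0.0568). Kif27, a relative of the Hedgehog regulator Kif7, was at 5.42 in ATRA replicate 1 and in all 3 DMSO arrays and at 6.62 in ATRA replicate 2. The difference therefore rests on 1 array (adjusted p = 0.262). Kif12, known from kidney and liver, was at 6.61 and 6.89 in ATRA and at 6.28, 6.68 and 6.61 in DMSO, with overlapping groups (log2 difference 0.23, SE 0.19, adjusted p = 0.355). Kif7, Kif19a, Kif26b, Kif12, Kif6 and Kif9 had differences from 0.01 to 0.23, all of which turned negative on centred arrays, and none passed.

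Kif2a, a depolymerase that works both at spindle poles and in growing neurites, stood at 9.01 and 9.05 in ATRA and at 9.05 in all 3 DMSO arrays. Its log2 difference was -0.02, with an interval at 95% confidence from -0.30 to 0.26. Genes that averaged 9 to 10 in DMSO had a median difference of -1.94, and 57.5% of these 1223 genes were lower. In 4 of the 5 arrays, ATRA replicate 2 among them, the deposited values of Kif2a were identical in every digit. Identical values in 3 or more arrays occurred in 8 of 37 kinesins (0 mitotic, 2 transport and neuronal, 6 ciliary and other) and in 17.4% of all genes. Identical values in 2 or more arrays occurred in 18 of 37 kinesins, 2 of them mitotic (Kif4 and Kif23), and in 10597 of 22180 genes. For Kif4 the arrays that shared a value were DMSO replicates 2 and 3. What this repetition means for the measured spread of these genes was not tested.

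The size of the differences followed the level in DMSO, and the classes differed in level. Across the 37 kinesins, whose values come from the same 5 arrays, Pearson's r between the DMSO mean and the log2 difference was -0.79 and Spearman's rho -0.83. Across all 22180 genes the values were -0.77 and -0.77. The DMSO mean enters both sides of these correlations, since it is subtracted in the difference, so a negative value is partly built in. The median DMSO mean was 8.13 for mitotic, 7.003 for transport and neuronal and 6.32 for ciliary and other kinesins. In the range from 8 to 9 lay 7 mitotic kinesins, of which 4 were lower, while 52.4% of all 2582 genes of that range were lower. Their median difference was -1.62, against -1.33 for all genes there. In the range from 7 to 8, 1 of 2 mitotic kinesins (Kif4) and 2 of 7 transport and neuronal kinesins (Kif21b and Kif13a) were lower, against 28.1% of 3409 genes. In the range from 6 to 7, 1 of 2 mitotic kinesins (Kif14) was lower, against 2.65% of all genes. The share of mitotic kinesins called lower was near that of all genes of the same level in the range from 8 to 9, and the lower ranges hold too few of them to read a share.

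**Figure D4:**
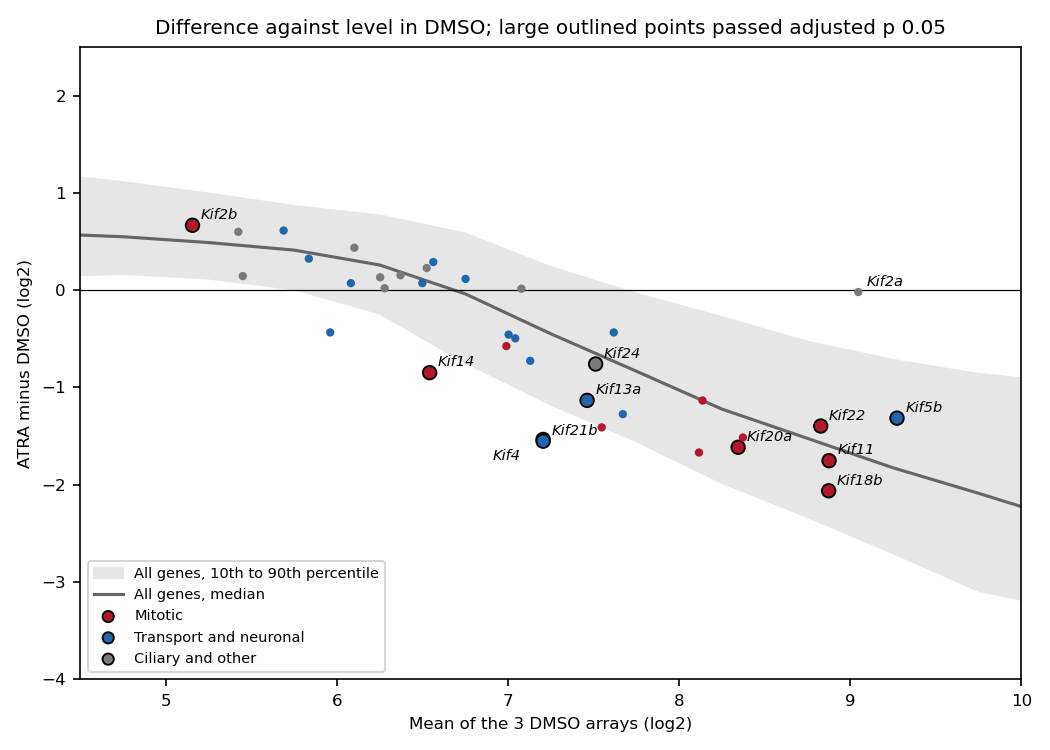
ATRA minus DMSO log2 difference of each kinesin gene (vertical) against its mean over the 3 DMSO arrays (horizontal), with the median of all genes as a line and a grey band for the middle range of all genes between the percentiles given in the legend; large outlined points passed the adjusted p of 0.05. Most kinesins lie inside the band, Kif4, Kif21b, Kif14, Kif18a and Kif21a lie below it and Kif2a lies above it.

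A fit with the trend of each ATRA array on the DMSO mean removed expresses differences relative to genes of the same level. In it, 2 kinesins were lower (Kif4 and Kif21b) and 0 higher, beside 0.789% of all genes lower and 1.93% higher. Kif4 differed by -1.11 (adjusted p = 0.0332) and Kif21b by -1.13 (adjusted p = 0.048). The other 9 calls ended there, with differences of -0.44 for Kif18b (adjusted p = 0.54), -0.34 for Kif20a, -0.13 for Kif11 and -0.93 for Kif14 (adjusted p = 0.103). The direction turned for Kif22 (0.20, adjusted p = 0.751) and Kif5b (0.54, adjusted p = 0.187). The median was -0.33 for mitotic, -0.19 for transport and neuronal and 0.06 for ciliary and other kinesins, against 0.02 for all genes. The mitotic kinesins were negative in 9 of 12 cases and the transport and neuronal kinesins in 10 of 15. After cyclic loess normalization, 3 kinesins were lower and 0 higher, beside 6.78% and 3.48% of all genes. Of the 11 called kinesins Kif4 and Kif21b kept their call. The other kinesin lower there was Kif21a (-0.89, adjusted p = 0.0496), which had not passed on the deposited values. At an adjusted p under 0.1 on the deposited values, 15 kinesins were lower and 3 higher, beside 21.1% and 13.9% of all genes. With dim features left out, 12 of the 33 kinesins tested were lower and 1 higher, beside 25.7% and 6.41% of the genes tested. After quantile normalization 5 were lower and 0 higher, beside 7.86% and 1.98%, and Kif18b, Kif4, Kif20a, Kif21b and Kif13a kept theirs.

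**Figure D5:**
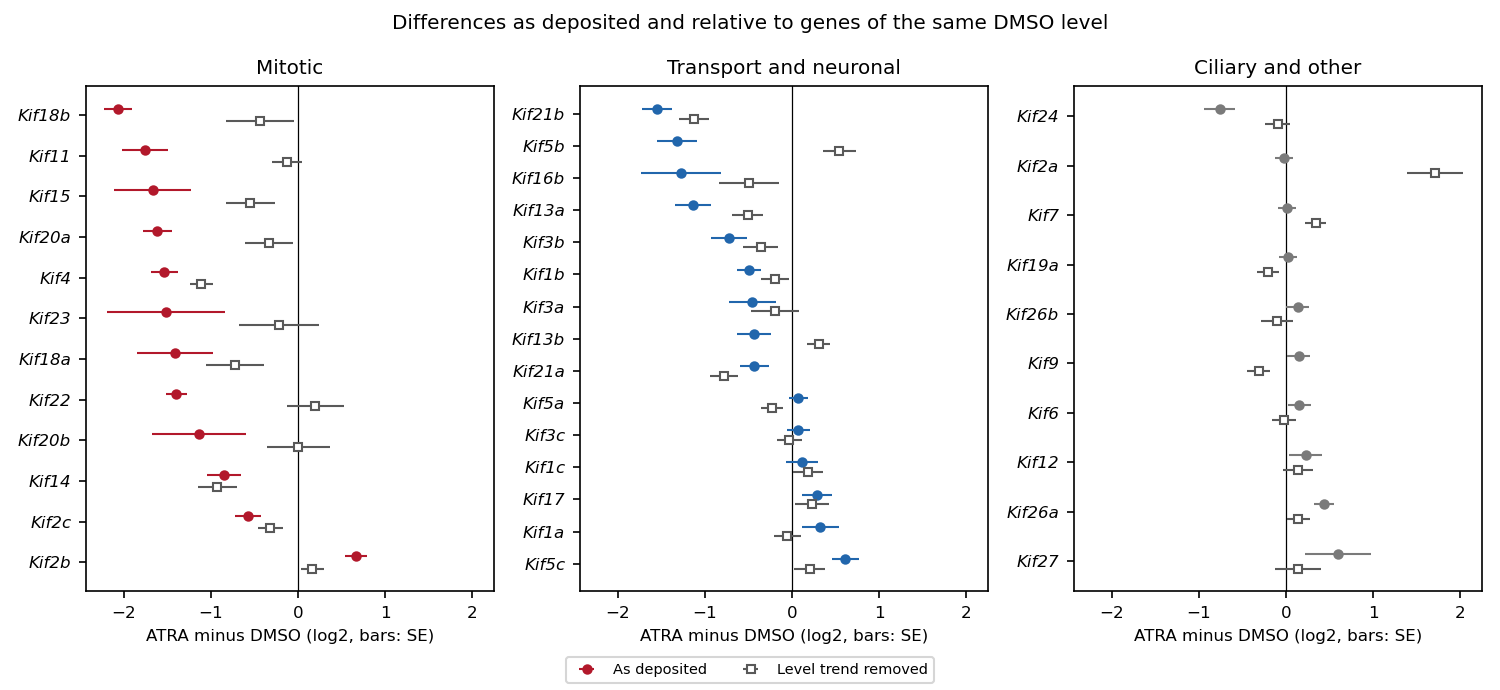
ATRA minus DMSO log2 difference with its standard error for each kinesin gene, as deposited (filled circles) and with the level trend removed (open squares), in a panel per class. Kif4 and Kif21b keep most of their fall, those of Kif18b, Kif11 and Kif20a shrink, and Kif2a moves to 1.71.

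Without any 1 of the 3 DMSO arrays, 0 kinesins and 0 of all genes were called by limma. At an unadjusted p below 0.05 there were then 14, 13 and 14 kinesins, beside 27.0%, 27.3% and 26.6% of all genes, compared with 19 kinesins and 40.3% of all genes in the full set of arrays. No difference changed sign in these 3 fits, and that of Kif3c was 0 without DMSO replicate 2. The mitotic median then ranged from -1.44 to -1.47.

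The related lists give the setting of these motors in the same fit. Of the kinesins outside the symbol pattern, all 6 listed were measured and 1 fell. It was Cenpe, the kinetochore motor that carries chromosomes to the equator, with 6.85 and 6.39 in ATRA and 7.78, 7.54 and 7.43 in DMSO (log2 difference -0.96, SE 0.20, adjusted p = 0.038). Kifc1, a minus-end motor that bundles spindle poles, was at 8.12 and 8.80 in ATRA and at 7.76, 8.29 and 8.24 in DMSO (adjusted p = 0.341). It has closely related copies, such as Kifc5b, which the probes may not separate. The median of this list was 0.07.

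Partners and regulators of the mitotic motors had medians near that of the mitotic kinesins. Of 19 measured partners, 11 fell and 0 rose (median -1.64, at a median DMSO mean of 8.50), where 52.4% of all genes that averaged 8 to 9 were lower. They included the spindle protein gene Hmmr (log2 difference -1.98, adjusted p = 0.0084), Cit, the citron kinase that binds Kif14 (-1.76), and Rhoa, the GTPase of the contractile ring (-2.07). Of 14 regulators of mitotic genes, 10 fell and 0 rose (median -1.87, at a median DMSO mean of 8.65, in the same range). Among them were Mybl2, the B-MYB subunit that activates promoters with a CHR (-2.43), Foxm1, which acts at the same promoters (-1.31), and Rbl2, the pocket protein of the repressive complex (-1.17). With the level trend removed, 1 partner (Hmmr, adjusted p = 0.0324) and 1 regulator (Lin54) were lower, with list medians of -0.44 and -0.34. In that fit the differences of Rhoa (0.43) and Rbl2 (0.17) turned positive. Those of Hmmr (-1.15), Cit (-0.90), Mybl2 (-0.41) and Foxm1 (-0.48) stayed negative.

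Adaptors of the transport motors, the opposite motor and the ciliary transport genes also held falls and no rise. Of 16 measured cargo partners of transport kinesins, 8 fell and 0 rose (median -0.70, at a median DMSO mean of 7.15, where 28.1% of all genes that averaged 7 to 8 were lower). Klc1, a light chain of conventional kinesin, was at 6.68 and 6.79 in ATRA and at 8.44, 8.38 and 8.24 in DMSO (log2 difference -1.62, adjusted p = 0.00707). Trak1, the adaptor that ties kinesin to mitochondria, differed by -1.77 and Madd, an adaptor of synaptic vesicle precursors, by -1.75. Of 21 genes of cytoplasmic dynein and dynactin, the motor toward microtubule minus ends, 8 fell and 0 rose (median -1.29, at a median DMSO mean of 8.57, against the 52.4% of that range). Of 14 intraflagellar transport genes, which Kif3a and Kif3b serve, 2 fell (Ift27 and Ift57) and 0 rose (median -0.36). Their median DMSO mean was 7.19, in the range where 28.1% of all genes were lower, and 15.5% of all genes of any level fell. With the level trend removed, 0 cargo partners and 0 intraflagellar genes passed in either direction, while 2 dynein and dynactin genes (Dynlrb1 and Dctn6) were higher.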

How the data were processed

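RNA of sorted HSCs was measured on 5 Affymetrix arrays, 2 from ATRA and 3 from DMSO cultures, with groups and replicate numbers from the sample titles. The authors deposited log2 values, 1 per feature and array. Per the submitters' processing notes, RMA, oligo 1.36.1 and limma 3.28.20 were used, with no role or order given. RMA summarizes the probes of a feature and usually normalizes arrays to each other first. The genome build is not given in the sources used here. With 5 arrays, precision is limited by their number.

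Values were used as deposited, without a filter on low values. Of 41345 features, 23521 named 1 gene, and 22180 genes were tested. The 37 kinesins had 40 such features, and Kif27, Kif5b and Kif7 had more than 1. A feature naming Kif3c together with another gene was not used. The groups were compared with limma 3.58.1 (R 4.3.3) with lmFit and eBayes, two-sided, and Benjamini-Hochberg adjustment over all genes at 0.05, where the residual degrees of freedom were 3 and those of the prior 1.52. Adjusted p-values are from this fit, or from the same test on values changed as the sentence says. The level trend was a lowess curve (span 0.2) of each ATRA array minus the DMSO mean on the DMSO mean. The other settings left out each array, added the replicate number as a block, dropped features whose higher group mean was not above 6.07, or changed the normalization, the variance model, the features of a gene or the threshold.

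The members, their classes and the related lists were chosen with earlier results of these data known, so their counts and medians are descriptions beside those of all genes. Values per array are given for members past the threshold, for the 4 with the smallest p in each class and for a fixed set of Kif1b, Kif2a, Kif2c, Kif3a, Kif4, Kif5b, Kif11, Kif14, Kif20a, Kif22 and Kif23. Further members were given for contrast, after their values were seen. Related genes were named from the 3 with the smallest p of their list, and Kifc1 is one of these. Lin54, Dynlrb1 and Dctn6 were named outside this rule, because they passed with the level trend removed. RefSeq protein sequences were not used here.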

Additional observations from a re-analysis of the deposited data

How the results depend on the processing

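Counts of calls depended on the setting, and the cause was not tested. Leaving out 1 array at a time gave 0 to 4 kinesins higher and 0 to 18 lower, with 0 to 1 mitotic kinesins higher and 0 to 11 lower, and 0 to 1 transport and neuronal kinesins higher and 0 to 6 lower. The mitotic median then ranged from -1.80 to -0.86, the transport and neuronal median from -0.54 to -0.33 and the gap between them from -1.47 to -0.32. Kif1c ranged from -0.12, without ATRA replicate 2, to 0.35, without ATRA replicate 1. With the replicate number as a block, 0 kinesins were called in either direction in any class (limma, 12 at an unadjusted p under 0.05, beside 24.4% of all genes), and 0 of all genes. Same-numbered arrays deviated together with correlations of 0.134 and 0.098 over 2 pairs, which does not show whether the numbers pair the samples, and no label says that they do. Array weights gave 0 calls as well.

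Quantile normalization left 5 kinesins lower, 3 of them mitotic, and 0 higher, beside 7.86% and 1.98% of all genes. It gave a transport and neuronal median of -0.33. Its reversals were Kif9 (-0.23), Kif26b (-0.057), Kif2a (0.75), Kif19a (-0.18) and Kif5a (-0.18). Centring the arrays gave 5 transport and neuronal kinesins lower (median -0.71) and 0 kinesins higher, beside 20.5% and 2.52% of all genes. It turned Kif12 (-0.044), Kif6 (-0.12), Kif9 (-0.13), Kif26b (-0.14), Kif19a (-0.25), Kif7 (-0.26), Kif5a (-0.20), Kif1c (-0.16) and Kif3c (-0.20). Cyclic loess gave 3 kinesins lower, 1 of them mitotic, and 0 higher, beside 6.78% and 3.48% of all genes. It gave medians of -0.70 for mitotic and -0.29 for transport and neuronal kinesins and a gap of -0.41. It turned Kif6 (-0.046), Kif9 (-0.35), Kif26b (-0.14), Kif2a (1.58), Kif19a (-0.26), Kif5b (0.16), Kif13b (0.19), Kif1a (-0.088), Kif5a (-0.29) and Kif3c (-0.064).

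Removing the level trend left 2 kinesins lower, 1 mitotic and 1 transport, and 0 higher, beside 0.789% and 1.93% of all genes. It gave medians of -0.33 for mitotic and -0.19 for transport and neuronal kinesins and a gap of -0.14. It turned Kif6 (-0.025), Kif9 (-0.31), Kif26b (-0.10), Kif2a (1.71), Kif19a (-0.20), Kif22 (0.20), Kif20b (0.00078), Kif5b (0.54), Kif13b (0.31), Kif1a (-0.052), Kif5a (-0.23) and Kif3c (-0.032). Leaving out dim features, which 33 of 37 kinesins passed, gave 12 kinesins lower, 8 of 11 mitotic ones among them. In that fit 0 mitotic and 1 transport kinesin were higher, beside 25.7% of the genes tested lower and 6.41% higher. At an adjusted p under 0.1, 3 kinesins were higher, 1 of them mitotic and 1 a transport kinesin, beside 13.9% of all genes. At that threshold 15 were lower, 9 mitotic and 5 transport kinesins among them, beside 21.1% of all genes. An intensity trend with a robust prior kept all 11 calls, and averaging a gene's features kept 10. Counting Kif2a as mitotic gave a mitotic median of -1.41.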
